A study of Mus musculus with 12 samples.

Results

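Primitive endoderm genes were followed through RNA sequencing of mouse embryonic stem cells depleted of Tet1 or of Tet2. The set held 8 genes, Gata6, Gata4, Sox17, Sox7, Foxa2, Pdgfra, Cubn and Dab2, found by Ensembl identifier among the 36521 rows of each deposited gene table. The groups were Tet1kd, Tet2kd and parental, with 4 libraries each, and the labels call the 4 libraries of a group biological replicates. Tet1kd and Tet2kd cells were V6.5 embryonic stem cells electroporated with the plasmid pSUPER-puro-Tet1shRNA or pSUPER-puro-Tet2shRNA, which express a short hairpin RNA against the named gene. These cells were selected in puromycin on inactivated SNL76/7-4 feeder cells and picked as single clones. Parental cells were V6.5 without a knockdown. All groups were grown in serum with leukemia inhibitory factor. The sources used here do not give how many clones stand behind the 4 libraries of a knockdown, and the groups analysed here include neither a control hairpin nor an empty vector, so the knockdown, the vector, the drug and the choice of clones cannot be told apart. Both knockdowns were compared with the same 4 parental libraries.

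The primitive endoderm is the extraembryonic layer that separates from the pluripotent epiblast inside the blastocyst. Fibroblast growth factor signalling and GATA6 favour it, NANOG opposes it, and GATA4, SOX17 and SOX7 follow GATA6 as the layer matures into the visceral and parietal endoderm of the yolk sac. Embryonic stem cells correspond to the epiblast, and cultures in serum usually carry a low level of the primitive endoderm genes, in rare cells or spread over many. TET1 and TET2 oxidize 5-methylcytosine, which in mammals lies mostly at CpG dinucleotides.

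By the sign of the deposited log2 fold change alone, 6 of the 8 genes were below parental in Tet1kd and 8 of 8 in Tet2kd, in the authors' deposited tables, but not all of these passed the test. Gata6 and Pdgfra were lower in both knockdowns, Gata4 fell in Tet1kd and Sox7 in Tet2kd, Sox17, Foxa2 and Dab2 passed the test in neither, and Cubn rose in Tet1kd and fell in Tet2kd. The widest difference between the knockdowns was that of Cubn, and Pdgfra also differed between them. The promoters of both are shown because they are the pair higher in Tet1kd than in Tet2kd, and that of Dab2 because it changed least of the 8. The stretches span 300 bases around a transcription start site of RefSeq (build GRCm38.p6), and are read 5′ to 3′ on the strand of the gene. Capitals mark CpG dinucleotides in Cubn (chr2:13491827-13492126, minus strand) and Pdgfra (chr5:75152001-75152300, plus strand), and the GATA words in Dab2 (chr15:6299539-6299838, plus strand).
Cubn: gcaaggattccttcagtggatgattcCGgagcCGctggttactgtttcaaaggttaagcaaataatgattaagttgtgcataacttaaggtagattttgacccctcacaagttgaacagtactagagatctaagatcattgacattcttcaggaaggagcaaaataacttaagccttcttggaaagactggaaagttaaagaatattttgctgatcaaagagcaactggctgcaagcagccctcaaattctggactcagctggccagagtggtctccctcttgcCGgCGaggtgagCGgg
Pdgfra: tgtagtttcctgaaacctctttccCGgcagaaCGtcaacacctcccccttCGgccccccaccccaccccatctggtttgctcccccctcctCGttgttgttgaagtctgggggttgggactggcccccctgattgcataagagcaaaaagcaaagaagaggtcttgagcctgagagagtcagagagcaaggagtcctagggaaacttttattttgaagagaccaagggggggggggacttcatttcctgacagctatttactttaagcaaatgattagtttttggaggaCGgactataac
Dab2: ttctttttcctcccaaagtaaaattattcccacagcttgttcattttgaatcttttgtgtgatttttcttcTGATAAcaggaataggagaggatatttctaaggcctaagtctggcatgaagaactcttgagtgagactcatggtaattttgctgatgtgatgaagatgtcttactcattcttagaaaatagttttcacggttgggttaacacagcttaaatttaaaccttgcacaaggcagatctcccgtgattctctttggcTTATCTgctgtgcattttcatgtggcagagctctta
Cubn and Pdgfra held 5 CpG dinucleotides each, against a median of 7 (quartiles 3 and 20) over the 32851 promoters of the table, so both lie below that median. The 3 promoters listed for Foxa2 held 12, 23 and 13, and the printed Dab2 stretch held 2. A second Dab2 promoter is listed (chr15:6386498-6386797, plus strand), with 19 CpG dinucleotides and no GATA word. The GATA factor words AGATAA or AGATAG, and TGATAA or TGATAG, occur on either strand in 29.8% of all promoters of this length. The printed Dab2 stretch held 2 of them, TGATAA and, on the opposite strand, AGATAA. The Cubn and Pdgfra stretches held none, nor any of the SOX words (ACAAAG or ACAATG, and ACAATA or ACAATT, in 39% of all promoters) or FOX words (TGTTTAC or TGTTTGC, in 8.48%). Which start sites these cells used was not tested.

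The deposited tables give the mean normalized read count of a group (reads divided by a size factor of the library) and no value per library. The whole read numbers behind each mean were recovered, because a mean of 4 whole numbers over 4 known size factors takes only certain values. For 24 of 24 means of these genes exactly 1 set of 4 whole numbers matched the deposited values (relative tolerance 2e-14 for a mean). Where several sets matched a mean, the parental mean of the other gene table or the deposited fold was used to choose among them. Libraries are lettered a to d by size factor and are not tied to the numbered samples of the labels. Libraries a and b of each group were deeper (24.5 to 39.7 M reads, estimated) than c and d (14.4 to 17.3 M). All normalized counts are given on the scale of the Tet1kd table. A gene is called where the adjusted p-value of the first test in the authors' deposited table is under 0.05. Differences between Tet1kd and Tet2kd were tested with limma on log2(normalized count + 0.5). The fit held 11804 genes with a mean of at least 10, out of 20400 whose reads were recovered in all 3 groups. Genes whose reads were not recovered, among them all with a group mean above 10000, are not in it. Of the 8 genes 7 passed the filter on the mean, Foxa2 being the exception. In the authors' deposited tables Tet1 stood at 25.2% of parental in Tet1kd and Tet2 at 50.9% of parental in Tet2kd.

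Genes of the pluripotent state were abundant in the parental cells. In the authors' deposited table the parental mean per kilobase of exon was 7288 for Nanog, 6302 for Pou5f1 and 4912 for Sox2. The same quantity from the recovered reads was 32.2 ± 4.44 for Gata4 in parental cells (SD, n = 4), the highest of the primitive endoderm genes given an exon length. Sox7 (18.8 ± 1.89) and Gata6 (18.7 ± 2.34) followed in parental cells, and their levels did not differ beyond their spread. Pdgfra stood at 11.4 ± 1.37 per kilobase in parental cells. Sox17 (5.76 ± 1.19), Foxa2 (4.77 ± 1.23) and Cubn (4.52 ± 0.94) came last in parental cells, within each other's spread. Exon lengths are from the GENCODE M21 annotation, and no length was used for Dab2, whose row joins it with a second identifier. Dab2 therefore has no place in the orders given here, although its parental mean normalized count, 287, was the highest of the set. In Tet1kd cells Cubn led the order at 21.6 ± 1.80 per kilobase, ahead of Gata4 at 18.6 ± 2.83, and Gata6 was at 5.33 ± 0.74. In Tet2kd cells Cubn closed the order at 1.76 ± 0.25 per kilobase, and Gata4 led it at 25.2 ± 3.37. In bulk RNA such as this, fewer cells of a type and less RNA per cell cannot be told apart.

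**Figure D1:**
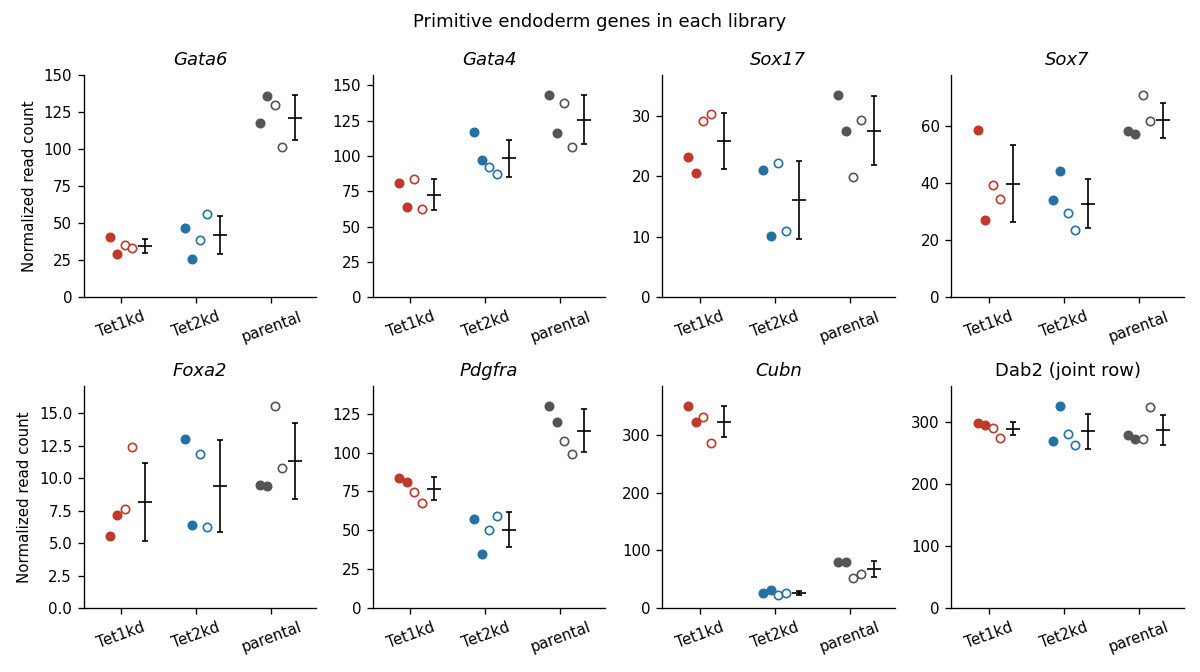
Normalized read counts (vertical axes, from 0) of the 8 primitive endoderm genes in each library of Tet1kd, Tet2kd and parental cells. Points are libraries a to d from left to right within a group, filled for the deeper libraries a and b and open for the shallower c and d, and bars are the mean ± SD (n = 4). Cubn stands between 287 and 351 in Tet1kd, above all other libraries, while Gata6 is below the parental libraries in both knockdowns.

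Counted over the set, 3 of the 8 genes were lower and 1 higher in Tet1kd by the authors' deposited table, and 4 passed the test in neither direction. Over all 23120 genes tested in that comparison 30.4% were called, 15.3% lower and 15.2% higher. In Tet2kd 4 of the 8 were lower by the authors' deposited table, none was higher, and 4 passed in neither direction. There, 7.14% of the 22949 genes tested were called, 3.29% lower and 3.85% higher. Among genes with a mean of 20 to 300, the range in which most of the 8 lie, 19.2% were lower and 21.9% higher in Tet1kd, and 3.76% were lower and 5.88% higher in Tet2kd. The share of these genes called in Tet1kd (4 of 8) was thus nearer to its background than the share called in Tet2kd (4 of 8). By limma on the recovered reads, where Foxa2 did not pass the filter, 5 genes were called in Tet1kd and 4 in Tet2kd. Of the 11804 genes in that fit, 51.6% were called in Tet1kd and 17.1% in Tet2kd. The median log2 fold change of the 8 genes was -0.52 in Tet1kd (all genes -0.02) and -0.85 in Tet2kd (all genes 0.00), from the authors' deposited tables. The 2 comparisons share their parental libraries, so a parental library that is high by chance lowers both.

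Gata6 (ENSMUSG00000005836, chromosome 18) encodes the GATA factor that starts the primitive endoderm programme. Its normalized counts were 40.8, 29.3, 35.5 and 33.1 in Tet1kd libraries a to d, 47.0, 25.7, 38.5 and 56.1 in Tet2kd libraries, and 118, 136, 130.3 and 102 in parental libraries. Every knockdown library was below every parental library, and the Tet1kd and Tet2kd libraries overlapped. The means were 34.7 ± 4.81 in Tet1kd, 41.8 ± 12.9 in Tet2kd and 122 ± 15.2 in parental cells (SD, n = 4). These rest on 163 reads in Tet1kd, 155 in Tet2kd and 494 in parental cells. Gata6 stood in the authors' deposited tables at 28.5% of parental in Tet1kd (log2 fold change -1.81, adjusted p = 5.91e-14) and at 34.4% in Tet2kd (-1.54, adjusted p = 4.74e-10). The fall was the steepest of the 8 genes in both knockdowns. Tet1kd and Tet2kd differed by -0.22 on the log2 scale (95% interval -0.69 to 0.24, limma adjusted p = 0.430), so a difference of up to 0.69 in that direction cannot be told from none at this depth.

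Gata4 (ENSMUSG00000021944, chromosome 14) encodes the related factor that acts after GATA6 in the endoderm. Its normalized counts were 80.6, 64.2, 83.6 and 62.1 in Tet1kd libraries, 117, 97.3, 91.9 and 87.3 in Tet2kd libraries, and 143, 116, 137 and 107 in parental libraries. All Tet1kd libraries lay below all Tet2kd and all parental libraries, and Tet2kd library a lay within the parental range. Gata4 fell in Tet1kd in the authors' deposited tables (log2 fold change -0.79, adjusted p = 0.000343), and its value in Tet2kd was -0.35 (adjusted p = 0.398). Tet1kd was lower than Tet2kd, with a difference of -0.44 on the log2 scale (95% interval -0.77 to -0.11, limma adjusted p = 0.0274). That call did not hold without Tet1kd library b (adjusted p = 0.0750), without Tet1kd library d (0.0791) or without Tet2kd library a (0.0944).

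Sox7 (ENSMUSG00000063060, chromosome 14), a SoxF factor of the early extraembryonic endoderm and of vessels, had normalized counts of 58.5, 26.9, 39.3 and 34.5 in Tet1kd libraries, 34.0, 44.0, 29.7 and 23.4 in Tet2kd libraries, and 58.1, 57.2, 70.8 and 61.8 in parental libraries. The Tet2kd libraries were all below the parental ones. Of the Tet1kd libraries, b, c and d were below them and a was inside their range. Sox7 fell in Tet2kd in the authors' deposited tables (log2 fold change -0.92, adjusted p = 0.0486) and was at -0.64 in Tet1kd (adjusted p = 0.146). By limma Tet1kd was also called against parental (-0.68, adjusted p = 0.0280), with an adjusted p from 0.00656 to 0.0988 when 1 library was left out in turn and of 0.00656 without Tet1kd library a. The difference of Tet1kd from Tet2kd was 0.26 (95% interval -0.26 to 0.78, limma adjusted p = 0.414).

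Sox17 (ENSMUSG00000025902, chromosome 1), the SoxF factor that maintains extraembryonic endoderm, had normalized counts of 23.2, 20.6, 29.1 and 30.4 in Tet1kd libraries, 21.0, 10.1, 22.2 and 10.9 in Tet2kd libraries, and 33.4, 27.4, 19.8 and 29.3 in parental libraries. Tet2kd libraries b and d were below all others, with 11 and 7 reads, while the remaining Tet2kd libraries overlapped the parental range. The log2 fold change of Sox17 in the authors' deposited tables was -0.09 in Tet1kd (adjusted p = 0.827) and -0.78 in Tet2kd (adjusted p = 0.290). Tet1kd stood 0.74 above Tet2kd (95% interval 0.08 to 1.40), which missed the threshold over all genes in the fit (limma adjusted p = 0.0614). It passed without Tet2kd library a (adjusted p = 0.0394) and without Tet2kd library c (0.0299). Foxa2 (ENSMUSG00000037025, chromosome 2), a forkhead factor of visceral and definitive endoderm, had the fewest reads of the set. Its normalized counts were 5.52, 7.13, 7.60 and 12.4 in Tet1kd libraries, 13.0, 6.42, 11.9 and 6.24 in Tet2kd libraries, and 9.44, 9.40, 15.6 and 10.8 in parental libraries. The groups overlapped, and libraries held from 4 to 18 reads. The log2 fold change of Foxa2 in the authors' deposited tables was -0.47 in Tet1kd (adjusted p = 0.670) and -0.27 in Tet2kd (adjusted p = 1). By limma without the filter on low means the interval ran from -1.46 to 0.51 in Tet1kd and from -1.29 to 0.69 in Tet2kd. Both intervals held no change as well as a 2-fold fall.

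Pdgfra (ENSMUSG00000029231, chromosome 5) encodes the receptor of platelet-derived growth factor A that marks primitive endoderm cells from the blastocyst on and is also made by fibroblasts. Its normalized counts were 83.9, 80.8, 74.8 and 67.6 in Tet1kd libraries, 57.2, 34.9, 50.4 and 59.2 in Tet2kd libraries, and 130.0, 119.8, 108 and 98.8 in parental libraries. The 3 groups did not overlap, with Tet2kd lowest, Tet1kd between and parental highest. Means were 76.8 ± 7.19 in Tet1kd, 50.4 ± 11.0 in Tet2kd and 114 ± 13.7 in parental cells (SD, n = 4). Pdgfra fell in the authors' deposited tables in Tet1kd (log2 fold change -0.57, adjusted p = 0.0136) and in Tet2kd (-1.18, adjusted p = 2.24e-06, 44.2% of parental). Tet1kd was higher than Tet2kd by 0.63 (95% interval 0.25 to 1.00, limma adjusted p = 0.00733), and leaving out any 1 library gave 0.46 to 0.71. Markers of feeder fibroblasts moved in Tet1kd as well. Of 12 such markers 11 were lower and none higher in Tet1kd, and 1 was lower and 4 were higher in Tet2kd, by the authors' deposited tables. The summed normalized count of the 11 recovered markers (without Col1a1) was 1894 to 2026 in Tet1kd libraries, 4476 to 4561 in Tet2kd libraries and 3784 to 4006 in parental libraries. Single markers went both ways in Tet2kd by the authors' deposited table. Acta2 (0.64), Col1a1 (0.49), Col1a2 (0.39) and Twist2 (1.31) were called higher there, and Col3a1 (-0.56) was called lower. The part of feeder RNA in the Pdgfra values of Tet1kd and of Tet2kd was not tested.

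Cubn (ENSMUSG00000026726, chromosome 2) encodes cubilin, the large endocytic receptor with which visceral endoderm takes up proteins and lipoproteins. Its normalized counts were 351, 323, 332 and 287 in Tet1kd libraries, 25.3, 31.2, 22.2 and 26.5 in Tet2kd libraries, and 79.9, 79.1, 52.4 and 58.7 in parental libraries. No library of a group overlapped another group, and the lowest Tet1kd library lay far above the highest parental one. Means were 323 ± 26.8 in Tet1kd, 26.3 ± 3.72 in Tet2kd and 67.5 ± 14.1 in parental cells (SD, n = 4), from 1514 reads in Tet1kd, 101 in Tet2kd and 286 in parental cells. By the authors' deposited tables Cubn was 4.79-fold higher in Tet1kd (log2 fold change 2.26, adjusted p = 2.85e-40) and at 39.0% of parental in Tet2kd (-1.36, adjusted p = 5.35e-05). Tet1kd exceeded Tet2kd by 3.60 on the log2 scale (95% interval 3.25 to 3.96, limma adjusted p = 4.18e-11), and by 3.53 to 3.68 with 1 library left out in turn. The parental mean of Cubn was 79.5 over the deeper and 55.5 over the shallower libraries.

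Dab2 encodes an adaptor that links cubilin and its partner megalin to clathrin and is a long-used marker of this layer. It was counted in 1 row with a second identifier (ENSMUSG00000022150 and ENSMUSG00000079102, chromosome 15), and the second has no symbol in the annotation used, so reads of the 2 cannot be told apart. The row had normalized counts of 299.6, 295, 290.2 and 275 in Tet1kd libraries, 269.9, 327, 282 and 263 in Tet2kd libraries, and 279.7, 273, 273 and 324 in parental libraries. The 3 groups overlapped. For this row the authors' deposited tables give a log2 fold change of 0.01 in Tet1kd (adjusted p = 0.937) and -0.01 in Tet2kd (adjusted p = 1). The 95% interval by limma was -0.19 to 0.22 in Tet1kd and -0.21 to 0.19 in Tet2kd, both within 0.22 of 0, which is less than the change of any of the 8 genes that was called.

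**Figure D2:**
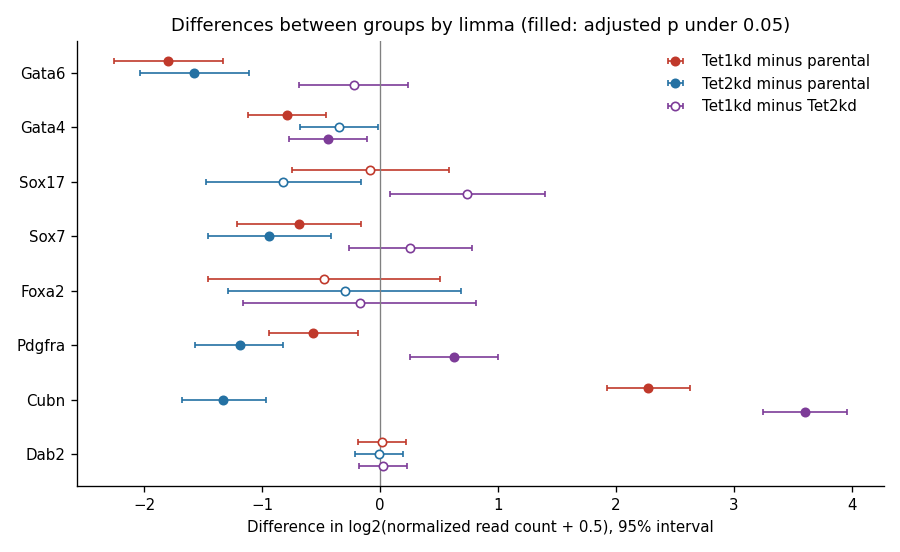
Differences between groups in log2(normalized read count + 0.5) by limma (horizontal axis), with 95% intervals, for each of the 8 genes (rows). Red is Tet1kd minus parental, blue Tet2kd minus parental and purple Tet1kd minus Tet2kd, and filled points passed an adjusted p of 0.05. Cubn is at 2.27 in Tet1kd and -1.33 in Tet2kd, and Dab2 is at 0.01 and -0.01. Foxa2 was fitted without the filter on low means.

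Libraries of different groups deviated together within the deeper and within the shallower libraries, a split read from the size factors and not from the labels, so the called differences from parental were also taken within each. For Cubn the log2 ratio to parental was 2.08 (deeper) and 2.48 (shallower) in Tet1kd, and -1.49 (deeper) and -1.19 (shallower) in Tet2kd. Gata6 was at -1.86 and -1.76 in Tet1kd and at -1.80 and -1.29 in Tet2kd, deeper first. Pdgfra was at -0.60 and -0.54 in Tet1kd and at -1.44 and -0.91 in Tet2kd. Gata4 in Tet1kd was at -0.84 and -0.74, and Sox7 in Tet2kd at -0.56 and -1.32. For each called difference the knockdown and parental libraries did not overlap, so its direction was bound to hold in both parts. The split thus bears only on the size of these differences. Sox17 in Tet1kd, which was not called and whose libraries overlapped the parental ones, was at -0.47 and 0.28.

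The direct comparison of the knockdowns called 3 of the 7 genes that passed the filter, Cubn and Pdgfra higher and Gata4 lower in Tet1kd. It called 48.8% of the 11804 genes in the fit, to which all shares in this paragraph refer. All 4 libraries of Tet1kd stood above all 4 of Tet2kd for 2 of the 8 genes (23.1% of fitted genes) and below them for 1 (19.9%). Against parental, the groups did not overlap for 3 genes lower and 1 higher in Tet1kd (21.5% and 24.9% of fitted genes). In Tet2kd they did not overlap for 4 genes, all lower (9.9% of fitted genes). The share of the set that differed between Tet1kd and Tet2kd is thus close to that of the fitted genes.

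Exon use was compared in the authors' deposited exon tables, which test each exon bin of a gene relative to the rest of that gene. The 8 genes held 196 bins. Of these, 109 were tested in Tet1kd and 67 in Tet2kd. None passed an adjusted p of 0.05 in the authors' deposited table of DEXSeq, against 2.56% of all bins tested in Tet1kd and 2.45% in Tet2kd, while 13 bins in Tet1kd and 9 in Tet2kd had an unadjusted p under 0.05. The lowest adjusted p in the authors' deposited exon table was 0.0844 for Pdgfra and 0.0874 for Gata6, both in Tet1kd. Sox7 has 2 bins, of which none was tested. For Cubn the mean signal of each bin was set side by side in the 2 exon tables. Of its 79 bins, 34 had a mean normalized count of at least 2 in either exon table, and all 34 were higher in the table of Tet1kd and parental libraries than in the table of Tet2kd and parental libraries. With the Tet2kd table scaled as the gene tables were, the median ratio of the 2 table means over these bins was 5.06 (1.61 to 22.2). Both table means include the parental libraries. After this scaling, which was also applied before the limit of 2, only bins 2, 3, 4 and 18 reached 2 in the Tet2kd table. The other bins were kept through the Tet1kd table alone. For those bins the filter itself favoured a higher value in the Tet1kd table. Bins 2, 3, 4 and 18 had means of 13.8, 13.0, 10.1 and 6.77 in the Tet1kd table, against 4.44, 3.24, 2.54 and 2.14 in the scaled Tet2kd table.

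**Figure D3:**
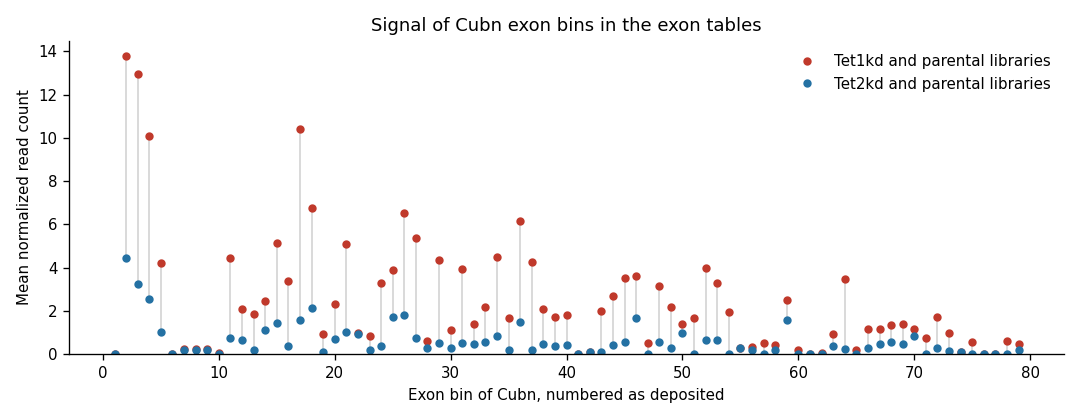
Mean normalized read count (vertical axis) of each exon bin of Cubn, numbered as in the deposited exon tables (horizontal axis). Red points are means over Tet1kd and parental libraries, blue points means over Tet2kd and parental libraries multiplied by 1.089, and grey lines join the 2 means of a bin. All 34 bins with a mean of at least 2 in either table are higher in red, and they lie between bins 2 and 64. Of these only bins 2, 3, 4 and 18 reach 2 in blue, so the limit itself favours bins higher in red.

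The 2 coding genes on each side of every gene of the set were looked up by their order in RefSeq, a choice made after the values of the 8 genes were seen. Of these 32 neighbours 27 were tested. In Tet1kd 4 of them were higher and 8 lower, and in Tet2kd 1 was higher and 1 lower, by the authors' deposited tables. Over all genes tested 15.2% were higher and 15.3% lower in Tet1kd, and 3.85% were higher and 3.29% lower in Tet2kd. Beside Cubn, Rsu1, a suppressor of Ras signalling in adhesions, had a log2 fold change of -0.18 in Tet1kd (adjusted p = 0.133) and 0.01 in Tet2kd (adjusted p = 1) in the authors' deposited tables. Trdmt1, a tRNA cytosine methyltransferase on the other side of Cubn, was at -0.02 in Tet1kd and -0.03 in Tet2kd in the authors' deposited tables (adjusted p = 1 in both). Vim, the intermediate filament gene one place further, fell in Tet1kd (-0.47, adjusted p = 0.000847) and was at -0.10 in Tet2kd in the authors' deposited tables. A gene on the opposite strand shares 368 bases of exon with Cubn (Gm13270), and the authors' deposited table lists it at a parental mean of 0.18. Gata4 and Sox7 lie on the same chromosome with 6 coding genes between them. Pinx1, a telomerase inhibitor next to Sox7, fell with it in Tet2kd (-0.40, adjusted p = 0.0146) and also fell in Tet1kd (-0.74, adjusted p = 4.64e-08) in the authors' deposited tables. Near Gata4, Neil2 rose (0.37, adjusted p = 0.0352) and Fam167a fell (-0.71, adjusted p = 0.0227) in Tet1kd in the authors' deposited table. Also called in Tet1kd in that table were Kit beside Pdgfra (0.25, higher) and Kdr near it (-2.09, lower). Nkx2-2 (-3.47) and Thbd (-1.23) near Foxa2, Xkr6 near Sox7 (-0.59) and Fyb near Dab2 (-0.30, joint row) were called lower in Tet1kd there. Beside Gata6, Mib1, a ligase of the Notch pathway, rose in Tet1kd (0.34, adjusted p = 0.000347), and Cables1 rose in Tet1kd (0.56, adjusted p = 0.0214) and in Tet2kd (0.59, adjusted p = 0.0332), by the authors' deposited tables. Sox17, Gata6, Pdgfra and Dab2 also share exon bases with an opposite-strand gene of GENCODE M21, from 93 to 804. The sources used here do not say whether the authors counted by strand.

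Further genes of the endoderm and of the pathways around it were taken as lists. Among 8 endoderm transcription factors 2 were lower and none higher in Tet1kd, and none of 7 tested was called in Tet2kd, by the authors' deposited tables (median log2 -0.23 in Tet1kd and -0.01 in Tet2kd). The lower ones in Tet1kd were the forkhead genes Foxa3 (-1.14, adjusted p = 0.00495) and Foxa1 (-1.92, adjusted p = 0.0139) in the authors' deposited table. In Tet2kd the authors' deposited table has Foxa3 at -0.01 and Foxa1 at -0.68, neither called. Of 10 genes for the basement membrane that parietal endoderm lays down, 5 were higher and 2 lower in Tet1kd and 1 was lower in Tet2kd by the authors' deposited tables (median 0.25 in Tet1kd and 0.04 in Tet2kd). Laminin alpha 1 (Lama1, 0.90), type IV collagen (Col4a1, 0.93) and nidogen (Nid1, 0.58) rose and the matrix protein gene Sparc (-0.59) fell in Tet1kd in the authors' deposited table. None of these 4 was called in Tet2kd, where the authors' deposited table has Lama1 at 0.20, Col4a1 at -0.30, Nid1 at -0.14 and Sparc at 0.22. Col4a2, the partner chain of Col4a1, rose in Tet1kd (0.53, adjusted p = 7.70e-06) and fell in Tet2kd (-0.41, adjusted p = 0.00111) in the authors' deposited tables. Among 6 parietal endoderm genes 1 was higher and 3 lower in Tet1kd and 1 was lower in Tet2kd by the authors' deposited tables (median -0.49 in Tet1kd and 0.06 in Tet2kd). Srgn, a proteoglycan core, rose (1.51), and Snai1, a repressor of epithelial genes (-1.67), Thbd, thrombomodulin (-1.23), and Plat, tissue plasminogen activator (-1.08), fell in Tet1kd in the authors' deposited table. Plat also fell in Tet2kd (-0.78, adjusted p = 0.00774) in the authors' deposited table, which has Srgn at -0.56, Snai1 at -0.004 and Thbd at 0.50, none of them called. The basement membrane and parietal lists hold genes that fibroblasts express too, and the fibroblast markers were lower in Tet1kd, as given beside Pdgfra. Their part in these values was not tested.

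Megalin (Lrp2), which carries the cubilin complex into the cell, fell in Tet1kd (-0.42, adjusted p = 0.00311) and rose in Tet2kd (0.69, adjusted p = 1.97e-09) in the authors' deposited tables, the opposite of Cubn in both. Tet1kd was lower than Tet2kd for Lrp2, with a log2 difference of -1.11 (95% interval -1.25 to -0.96, limma adjusted p = 1.37e-09). Amn, the membrane anchor of cubilin, had a log2 fold change of 0.63 in Tet1kd (adjusted p = 0.579) in the authors' deposited table, and Tet1kd and Tet2kd differed by 0.19 (95% interval -0.64 to 1.03, limma adjusted p = 0.717). Of 14 genes for endocytosis and plasma proteins of visceral endoderm 12 were tested. In Tet1kd 2 of them were higher and 2 lower, and in Tet2kd 2 were higher and 1 lower, by the authors' deposited tables (median 0.33 in Tet1kd and -0.08 in Tet2kd). The others called were fibrinogen gamma (Fgg, 1.16), apolipoprotein E (Apoe, 0.37) and the peptidase gene Dpp4 (-1.06) in Tet1kd, and Apoe (0.41) and apolipoprotein B (Apob, -1.45) in Tet2kd, in the authors' deposited tables. Not called were Fgg (1.14) and Dpp4 (-0.12) in Tet2kd and Apob (0.53) in Tet1kd, in the authors' deposited tables.

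Of 5 ligands and receptors of the platelet-derived growth factor family 2 were lower in Tet1kd and 1 was higher in Tet2kd by the authors' deposited tables (median -0.36 in Tet1kd and -0.13 in Tet2kd). Pdgfa, the ligand of the Pdgfra receptor, fell in Tet1kd (-0.36, adjusted p = 0.0281), as did Pdgfrb (-0.65, adjusted p = 0.00896), which is itself among the fibroblast markers, and Pdgfc rose in Tet2kd (0.34, adjusted p = 0.00443), in the authors' deposited tables. Not called were Pdgfa (-0.16) and Pdgfrb (-0.20) in Tet2kd and Pdgfc (0.11) in Tet1kd, in the authors' deposited tables. Of 11 genes for the FGF and ERK signal that favours primitive endoderm, 1 was higher and 5 lower in Tet1kd and 1 was higher and 2 lower in Tet2kd by the authors' deposited tables (median -0.14 in Tet1kd and -0.03 in Tet2kd, with Fgfr1 and Fgfr2 counted in joint rows). The ligand gene Fgf4 rose in Tet1kd (0.82), while the feedback genes Spry4 (-1.07), Dusp6 (-0.96) and Spry2 (-0.68), whose transcription follows ERK activity, fell in the authors' deposited table. Etv4, an ETS factor gene that also follows ERK activity, fell in Tet1kd too (-1.01, adjusted p = 2.38e-12) in the authors' deposited table. In Tet2kd Spry4 (-0.52) and Etv4 (-0.42) fell and Dusp6 (0.28) rose, and Fgf4 (0.14) and Spry2 (-0.08) were not called, in the authors' deposited table. A list of 7 epiblast factors was drawn up as opposing Gata6 or its programme, and whether each of them does so was not tested. Of these 7, 4 were higher and 1 lower in Tet1kd and 2 were higher in Tet2kd by the authors' deposited tables (median 0.29 in Tet1kd and 0.15 in Tet2kd). Klf4 (1.20), Prdm14 (1.08) and Sox2 (0.29) rose and Sall4 (-0.39) fell in Tet1kd, and Prdm14 (0.74) and Sox2 (0.28) rose in Tet2kd, in the authors' deposited tables. Klf4 (0.22) and Sall4 (0.15) were not called in Tet2kd in the authors' deposited table. Nanog rose in Tet1kd (0.33, adjusted p = 0.0214) and was not called in Tet2kd (-0.08) in the authors' deposited tables. Prdm14 encodes a repressor that shields stem cells from extraembryonic endoderm fate.

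**Figure D4:**
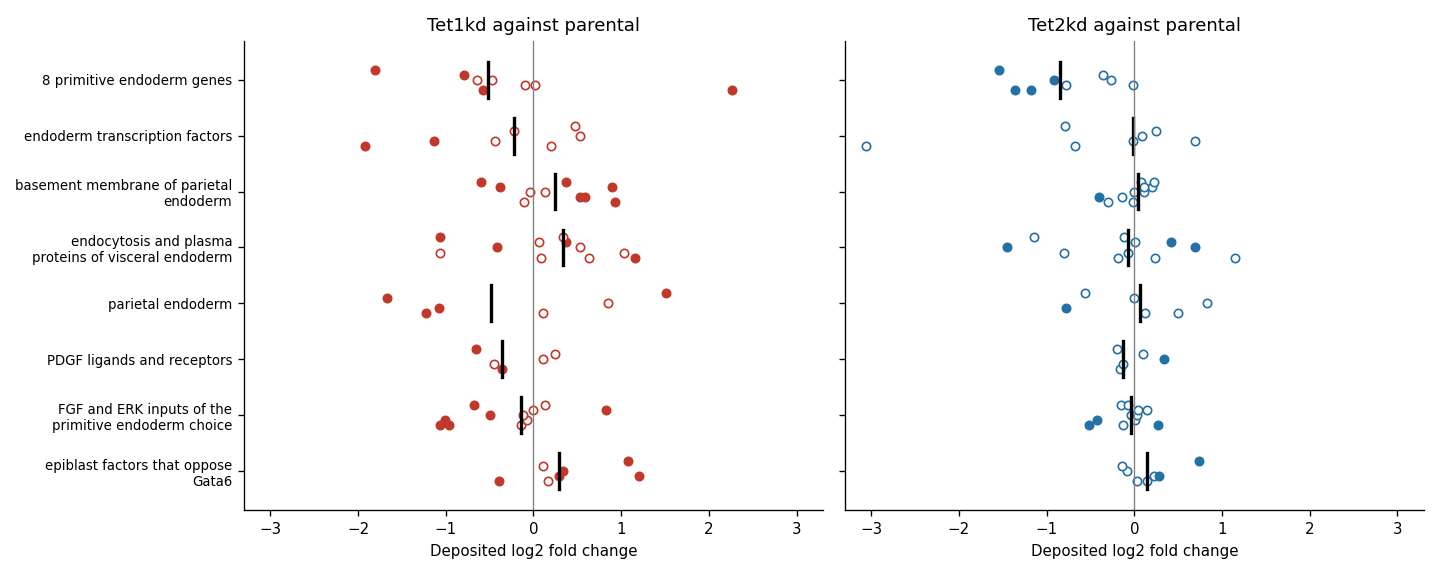
Deposited log2 fold change (horizontal axes) of the 8 primitive endoderm genes and of 7 gene lists (rows), in Tet1kd on the left and Tet2kd on the right, both against parental. Points are genes, filled where the deposited adjusted p was under 0.05, and black bars are list medians. Genes with no finite log2 value are not drawn. The median of the 8 genes is -0.52 in Tet1kd and -0.85 in Tet2kd, while the medians of the other lists lie between -0.49 and 0.33.

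Other cell types that could share these markers were counted in the same tables. Of 8 trophectoderm markers 2 were higher and 4 lower in Tet1kd and 1 was higher and 1 lower in Tet2kd by the authors' deposited tables. Their summed normalized count (7 recovered) was 1111 to 1259 in Tet1kd, 1243 to 1469 in Tet2kd and 1554 to 1745 in parental libraries. Of 6 definitive endoderm markers 1 was higher and 1 lower in Tet1kd and 3 were higher and 1 lower in Tet2kd by the authors' deposited tables. Their sum was 729.8 to 832 in Tet1kd, 446 to 515 in Tet2kd and 457 to 531 in parental libraries, with Cer1 at 0 reads in every Tet1kd library. Most of this sum was Eomes, which is also among the trophectoderm markers. In the authors' deposited tables Eomes rose (0.79) and Cxcr4 fell (-1.07) in Tet1kd. In Tet2kd Cer1 (4.12), Lhx1 (2.84) and Cxcr4 (0.76) rose and Eomes (-0.45) fell. The median log2 fold change of the list, unlike the sum, was below 0 in Tet1kd (-0.35) and above it in Tet2kd (0.805). Of 6 mesoderm markers 1 was higher and 2 lower in Tet1kd and 1 was higher in Tet2kd by the authors' deposited tables. Their sum was 79.4 to 113 in Tet1kd, 316 to 359 in Tet2kd and 220.1 to 259 in parental libraries, with Mesp1 at 0 reads in every Tet2kd library. Most of this sum in parental and Tet2kd libraries was T. In the authors' deposited tables T (-3.63) and Kdr (-2.09) fell and Tbx6 (1.39) rose in Tet1kd, and T rose in Tet2kd (0.87). Of 9 embryonic stem cell markers 4 were higher and 1 lower in Tet1kd and 1 was higher in Tet2kd by the authors' deposited tables. The part of any of these, or of the fibroblast markers, in the values of the primitive endoderm genes was not tested.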

How the data were processed

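The 8 genes and the gene lists were chosen with earlier results of these data known. Per the submitters' processing notes, reads (poly(A)-selected RNA, SOLiD libraries per the labels) were aligned with TopHat2 (2.0.0), handled with SAMtools (0.1.18) and compared with DESeq, on builds mm9 and NCBIM37. Per the file headers, the authors deposited in each gene table a mean signal per group (normalized count), the fold or ratio of knockdown to parental, the log2 of that fold, and p-values of 2 tests, each also adjusted. Their deposited exon tables hold a mean signal per bin, a log2 ratio, p-values and a dispersion score.

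From these the following was computed. Reads per library were recovered from the group means. Over all genes a set was kept where it alone matched, with each library within 60% of the group mean, or within a wider limit at low read numbers. This gave 21661 of 22004 parental, 19139 of 21658 Tet1kd and 18232 of 21368 Tet2kd genes with reads, means above 10000 not being searched. Parental reads from 1 table equalled those from both for 19775 of 19775 and 18036 of 18036 genes. A narrower limit on the spread, tried where the first search left several sets, was wrong for 3 of 1409 and 2 of 2459 parental genes, and its genes entered no test or sum. Parental libraries held an estimated 14.7 to 31.3 M reads, Tet1kd libraries 15.9 to 39.7 M and Tet2kd libraries 14.4 to 31.1 M. Tet2kd values were multiplied by 1.089 (1.087 to 1.092 over the 4 parental size factors) to reach the scale of the Tet1kd table.

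The first deposited test is the main one against parental, as group means allow no count model. The planned tests between the knockdowns used limma (3.58.1, R 4.3.3; all 3 groups in one fit, Benjamini-Hochberg adjustment), tested on simulated data. Named genes are the 8, and in each list all called genes, or the 4 with the smallest adjusted p where more were called. These genes' values in the other comparison are given too. Amn, Nanog among the epiblast factors, the neighbours and the single markers named for other cell types were chosen after their values were seen. Of 36521 rows 32155 matched a symbol and 905 join several identifiers. Promoters came from RefSeq (7 promoters for 4 of the 8 genes), used for sequence only.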

Additional observations from a re-analysis of the deposited data

Results flagged for a closer look

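In the 24 groups of 4 libraries checked, 1 library stood apart. Parental library d had a normalized count of 324 for Dab2, and the other parental libraries lay between 273 and 279.7. Chance flags about 1 in 20 such groups. With each library left out in turn, this one included, the log2 difference of Dab2 from parental was -0.01 to 0.07 in Tet1kd and -0.08 to 0.05 in Tet2kd.

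Between the knockdowns 3 genes differed by limma. Cubn was 3.60 higher in Tet1kd than in Tet2kd on the log2 scale (adjusted p = 4.18e-11), with all 4 Tet1kd libraries above all 4 Tet2kd libraries. Pdgfra was 0.63 higher in Tet1kd than in Tet2kd (adjusted p = 0.00733), also in 4 of 4 libraries. Gata4 was -0.44 in Tet1kd relative to Tet2kd (adjusted p = 0.0274), with 4 of 4 Tet1kd libraries below.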

How the results depend on the processing

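The 4 genes of the set called in Tet2kd numbered 4 under every alternative run, and the 4 called in Tet1kd became 5 by limma on the recovered reads (also with pseudocount 1, median-of-ratios scaling or a term for deeper and shallower libraries) through Sox7, and 4 by limma with no filter on low values. Leaving out 1 library in turn gave 4 to 5 in Tet1kd, 4 in Tet2kd and 2 to 4 between the knockdowns. No difference turned round among those called. Over all genes in the limma fits, Tet1kd against parental gave 5665 to 5819 calls, Tet2kd against parental 1568 to 1751 and Tet1kd against Tet2kd 5318 to 5474 with 1 library left out. The count of Tet2kd genes called, 1638, became 4171 with the second deposited test and 3440 by limma with a term for deeper and shallower libraries (2018 by limma without it), and the cause was not tested. The limma settings other than the planned fit, and that term, were added after the data were seen. The exon bins called numbered 0 at an adjusted p of 0.01 too. No paired analysis was possible because the deposited columns are group means and carry no replicate numbers. Libraries of different groups deviated together within the deeper or the shallower libraries (r of 0.12 to 0.29 over genes) and apart across them (-0.26 to -0.16). Depth limits Foxa2 and Sox17, at 4 and 7 reads in their poorest library.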
